A study of Mus musculus with 3 samples.

Results

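The 39 genes described here encode amino acid transporters, enzymes of serine, asparagine, glutamate and branched-chain amino acid metabolism, the cytosolic aminoacyl-tRNA synthetases and the transcription factor ATF4. They were chosen by name, and all 39 were found among the 55536 genes of the GENCODE M21 annotation. By role, 10 are transporters, 5 are Atf4 with the enzymes of serine and asparagine synthesis, 5 are enzymes of glutamate and transamination, and 19 are synthetases. Regulatory T cells (Treg cells, the Foxp3-expressing CD4 T cells that restrain immune responses) of mouse had been profiled by sequencing of polyA-selected RNA in 3 libraries. By their labels all 3 are technical replicates of 1 biological replicate from 1 donor, a male of 16 weeks, so no spread between animals can be read from them. Whether they were made from the same RNA sample is not stated, and library 3 and single genes such as Igha, below, differed widely between them. The cells are described as inflammation-experienced, and no cells without that experience were analysed here, so no effect of inflammation can be read from these values. Every library shares the strain Foxp3GFP-DTRCD4CreERT2R26tdTomato, whose name joins a Foxp3 reporter with the diphtheria toxin receptor, a tamoxifen-inducible Cre recombinase and a tdTomato reporter at the Rosa26 locus. Which inflammatory stimulus, toxin or tamoxifen treatment the mouse had received is left unstated in the sources used here. Sequencing gave 20996194, 18456254 and 17535472 expected counts in libraries 1, 2 and 3.

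T cells need amino acids from outside to build protein when they grow, and many of the carriers sit in the membrane as a light chain of the SLC7 family bound to the shared heavy chain SLC3A2 (CD98). Each synthetase joins an amino acid to its tRNA. When uncharged tRNA builds up, the kinase GCN2 phosphorylates the initiation factor eIF2, translation of the Atf4 mRNA increases, and ATF4 protein with a C/EBP partner switches on genes of amino acid supply and tRNA charging. ATF4 is controlled largely at translation, so the level of its RNA is not a measure of its activity.

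ATF4 and its partners bind the C/EBP-ATF composite element, which was searched for as TGATGNAA and as TTGCATCA on both strands, from 250 bases before to 50 bases after each start site. The reverse complement of TTGCATCA is one of the sequences that TGATGNAA allows, so every match of TTGCATCA is also a match of TGATGNAA. Promoter sequences of RefSeq on GRCm38.p6 were at hand for 29 of the 39 genes. TGATGNAA was present in 8 of these 29 genes (27.6%), against 4.51% of the 27025 genes in the promoter table and 3.97% of its 32851 promoters. TTGCATCA was present in 6 of the 29 genes (20.7%), against 1.03% of all genes in the table. These 8 genes are Slc7a11, Asns, Got1 and the synthetase genes Aars, Gars, Iars, Tars and Yars. The 12 synthetase genes with a promoter sequence thus included 5 with the element. Sites of these genes are shown because they are the sequence feature that these genes share. The start used matched that of a GENCODE transcript for Got1 and Iars and not for the others. For Aars the promoter used begins at base 111033592, inside the gene, which begins at 111033144 in GENCODE. The Asns site shown also lies inside its gene, which begins at 7693254 on the minus strand in GENCODE. The Tars site shown lies partly inside its gene, which begins at 11399665 on the minus strand. Each site has 30 bases, read on the strand that carries TGATGNAA, with the element in capitals. Places are those of the element's first base on the gene's strand. For sites on the opposite strand this is the last base of the element as printed.
Slc7a11, chr3:50443661-50443690, first base of the element 66 before the start: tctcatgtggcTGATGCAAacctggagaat
Slc7a11, chr3:50443642-50443671, opposite strand, 47 before the start: gggctgcatgaTGATGCAAattctccaggt
Asns, chr6:7693214-7693243, 23 before the start: tcccagccacaTGATGAAActtcccgcacg
Got1, chr19:43524689-43524718, opposite strand, 102 before the start: ggaggcttgtaTGATGCAAccaatgcaatg
Aars, chr8:111033840-111033869, opposite strand, at position 10 after the start: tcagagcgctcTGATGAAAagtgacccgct
Gars, chr6:55037960-55037989, opposite strand, 30 before the start: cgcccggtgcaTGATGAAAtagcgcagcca
Iars, chr13:49682126-49682155, opposite strand, at position 8 after the start: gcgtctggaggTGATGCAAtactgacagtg
Tars, chr15:11399655-11399684, opposite strand, 15 before the start: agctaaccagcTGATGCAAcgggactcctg
Yars, chr4:129189895-129189924, at position 4 after the start: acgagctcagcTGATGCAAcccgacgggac

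The DNA before the start is given on the gene's strand for 4 of these genes, whose levels in these cells lie far apart. Capitals again mark the element, which reads TTGCATCA or TTTCATCA where it lies on the opposite strand.
Slc7a11, chr3:50443615-50443763, minus strand: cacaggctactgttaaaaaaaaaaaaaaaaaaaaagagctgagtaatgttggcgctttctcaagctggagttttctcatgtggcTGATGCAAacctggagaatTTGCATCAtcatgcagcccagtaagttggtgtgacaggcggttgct
Got1, chr19:43524606-43524755, minus strand: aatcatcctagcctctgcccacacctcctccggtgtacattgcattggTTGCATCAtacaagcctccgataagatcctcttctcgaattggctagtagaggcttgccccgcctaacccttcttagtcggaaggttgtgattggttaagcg
Gars, chr6:55037851-55038000, plus strand: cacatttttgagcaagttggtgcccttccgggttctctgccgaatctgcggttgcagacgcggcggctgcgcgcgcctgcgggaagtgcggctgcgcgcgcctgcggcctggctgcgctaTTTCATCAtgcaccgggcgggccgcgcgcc
Tars, chr15:11399666-11399808, minus strand: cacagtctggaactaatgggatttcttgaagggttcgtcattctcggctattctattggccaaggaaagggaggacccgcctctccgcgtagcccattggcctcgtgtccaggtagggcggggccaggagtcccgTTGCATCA

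These matches describe letters only. The genes that carry the element ranged from 0.0900 TPM (Slc7a11) and 4.22 TPM (Asns) to 84.5 TPM (Tars), so a match went with no one level. TPM is a level per length of transcript, scaled to the same total in each library.

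Most of the genes were well above the middle of the transcriptome. In all, 37 of the 39 reached the detection limit of 1 TPM in each library, 33 reached 10 TPM in each library, and 7 averaged over 100 TPM. The genes not detected were Slc7a11 and, through library 3 alone, Slc7a5. The median level of the 39 genes was 63.8 TPM, against 25.9 TPM over the 10436 protein-coding genes detected. The synthetases had the highest median of the roles at 84.5 TPM, followed by Atf4 with the serine and asparagine enzymes at 58.0 TPM, the transporters at 44.8 TPM and the glutamate and transamination enzymes at 38.5 TPM. Together the 39 genes summed to 2426 TPM in library 3, 2771 TPM in library 1 and 2619 TPM in library 2.

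**Figure D1:**
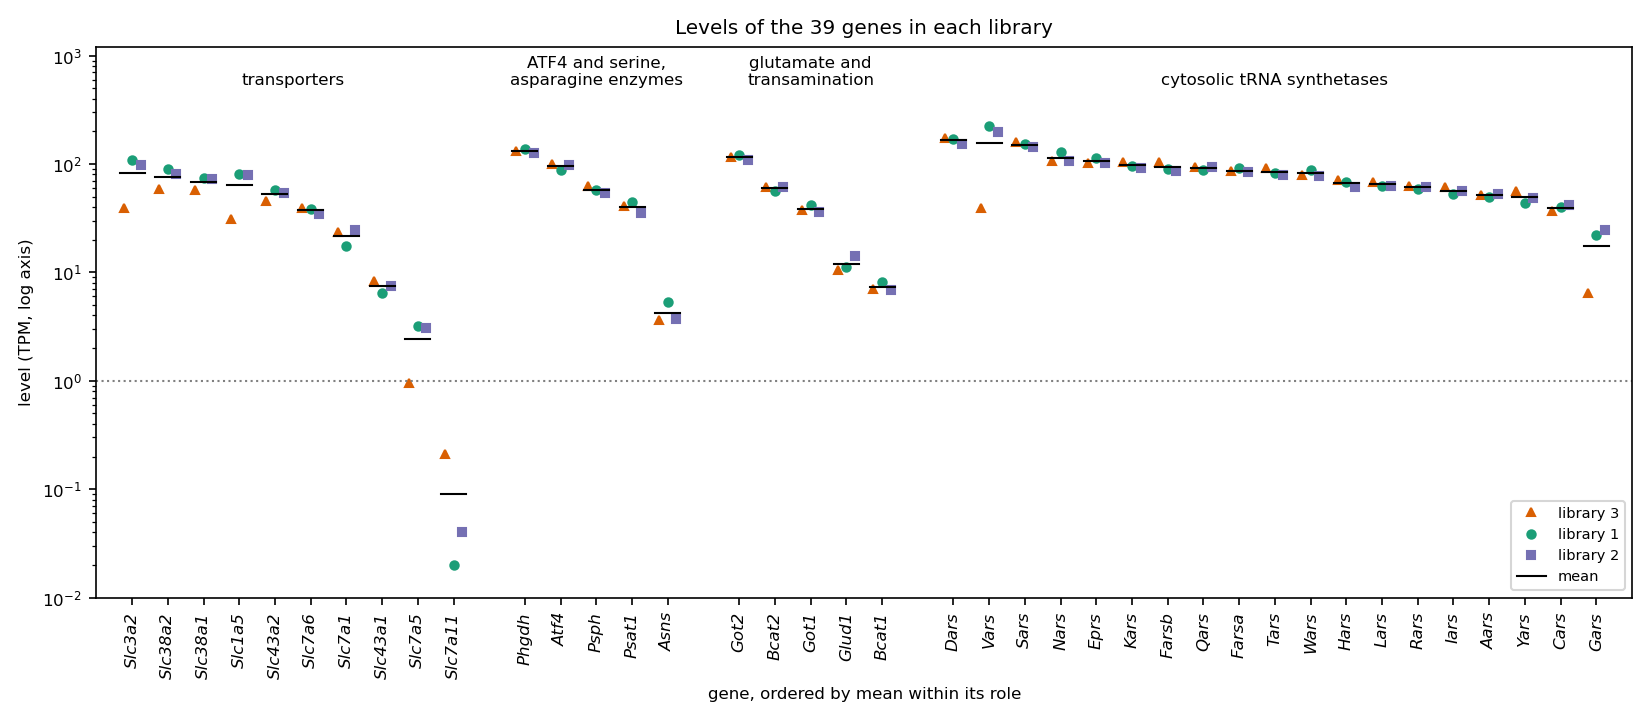
Level of each of the 39 genes in TPM on a log axis, with genes ordered by mean within their role; triangles are library 3, circles library 1, squares library 2 and bars the mean of the 3 libraries, and the dotted line is the detection limit of 1 TPM. Most genes sit between 10 and 200 TPM with the libraries close together, while Vars, Gars, Slc3a2, Slc1a5 and Slc7a5 have a triangle far below the other libraries.

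The cells carried the RNA of their label. The T cell markers Cd3e, Cd3d, Cd4, Trac and Lck were at 249.6 TPM or more in each library, with Trac highest at 2933 TPM on average, and Foxp3 was at 59.2 TPM in library 3, 77.6 TPM in library 1 and 86.2 TPM in library 2. B cell markers reached 1 TPM in each library in 4 of 5 cases and summed to 67.5 to 78.3 TPM, with Pax5 at 0.90 TPM or less. Plasma cell markers reached it in 3 of 5 and summed to 27.2 to 156 TPM, with Sdc1 at 0.28 TPM or less, and Igha was at 92.8 TPM in library 2, against 3.77 TPM in library 1 and 1.62 TPM in library 3. Macrophage markers reached it in 4 of 5 and summed to 39.6 to 50.6 TPM. Erythroid markers, led by globin RNA, reached it in 3 of 5 and summed to 998 to 1616 TPM, and of the CD8 T cell markers Cd8a stayed at or below 1.24 TPM and Cd8b1 lay between 15.8 and 21.1 TPM. In such bulk libraries fewer cells of a type and less RNA per cell cannot be told apart.

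Among the transporters, the heavy chain Slc3a2 had the highest mean, at 81.8 ± 37.2 TPM (SD, n = 3 libraries). It was at 39.3 TPM in library 3, against 108 and 97.5 TPM in libraries 1 and 2. Library 3 lay far below the others. Slc7a5 (LAT1), the light chain known for carrying leucine and other large neutral amino acids into activated T cells, was at 0.960 TPM in library 3, against 3.19 and 3.08 TPM in libraries 1 and 2. These values rest on 40 expected counts in library 3, against 144 and 128 in libraries 1 and 2. Slc7a5 was thus scarce in each library and scarcest in library 3.

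Slc7a6 (y+LAT2), a light chain that exchanges cationic for neutral amino acids, was at 38.2, 34.6 and 39.1 TPM in libraries 1 to 3. It was the light chain with the highest mean, and its libraries lay close together in TPM. Its leading transcript, of only 616 bases, held 25.5%, 27.6% and 43.4% of that TPM in libraries 1 to 3, but 8.28% of expected counts on average. The level of Slc7a6 in TPM thus depends on this short form, most in library 3. The proteins of Slc7a6 and Slc7a5 share 51.2% of 500 aligned residues. The log2 ratio of Slc7a6 over Slc7a5, taken here and below as log2(TPM + 1) of each gene, so that ratios of low genes come out too small, was 3.57 ± 0.68 (SD, n = 3). Slc3a2 stood over Slc7a5 by 4.55 ± 0.18 on the same scale. Both ratios had one sign in each library and passed the limit set for pairs, a mean of over 1 and of over 2 SD. An opposite-strand gene, Gm20388, overlaps Slc7a5 with a mean of 6.01 TPM, and whether the authors counted reads by strand is left unstated in the sources used here. The deposited SD of the Slc7a5 count from the assignment of reads was 0 in each library. The part of the overlap in its level was not tested.

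Slc7a11 (xCT), the cystine carrier and a known ATF4 target, was hardly read, with 8 expected counts in library 3 and 2 each in libraries 1 and 2. Its mean level was 0.0900 ± 0.104 TPM (SD, n = 3), and it was too low to be tested. The log2 ratio of Slc7a11 over Slc3a2 was -6.12 ± 0.93.

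Over the 6 light chains that SLC3A2 is known to bind, a set picked after values were seen (Slc7a5, Slc7a6, Slc7a7, Slc7a8, Slc7a10 and Slc7a11), levels summed to 50.1 TPM in library 3, against 79.2 and 57.5 TPM in libraries 1 and 2. Slc3a2 was 0.784 times that sum in library 3, against 1.37 and 1.70 times in libraries 1 and 2. In TPM, heavy chain RNA was below the light chains together in library 3 and above them in libraries 1 and 2. Slc7a6 made up 77.9% of the sum in library 3, against 48.2% and 60.2% in libraries 1 and 2, and Slc7a5 made up 1.92% to 5.36% in any library. The rest was mainly Slc7a10, a small neutral amino acid carrier, at 6.73 TPM in library 3, against 35.1 and 17.8 TPM in libraries 1 and 2. In TPM, Slc7a10 came after Slc7a6 in each library and had the widest range of the 6. The short leading form of Slc7a6 counts in these sums and shares, and in library 1 the order of Slc7a6 and Slc7a10 rests on it. In library 3, where it held 43.4% of the TPM of Slc7a6, the light chains together exceed Slc3a2 only with this form included.

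**Figure D2:**
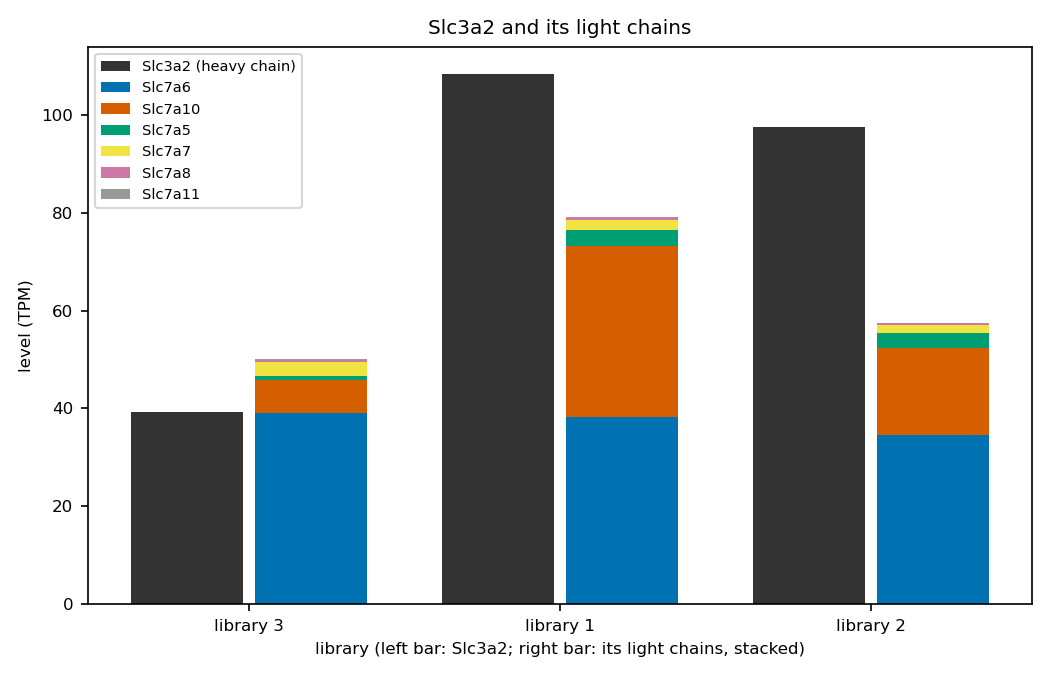
Levels in TPM of the heavy chain Slc3a2 (left bar) and of its 6 light chains stacked (right bar) in libraries 3, 1 and 2. Slc3a2 is below the stack in library 3 and above it in libraries 1 and 2, and Slc7a6 is the largest layer in each library. The order of Slc3a2 and the stack in library 3, and that of Slc7a6 and Slc7a10 in library 1, rest on the short form of Slc7a6.

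The glutamine and neutral amino acid carriers outside the SLC7 family were abundant. Slc38a2 (SNAT2), a sodium-coupled carrier of glutamine and alanine, was at 58.7 TPM in library 3, against 89.7 and 81.4 TPM in libraries 1 and 2. Its relative Slc38a1 was at 57.4 TPM in library 3, against 74.1 and 72.4 TPM in libraries 1 and 2. The log2 ratio of Slc38a1 over Slc38a2 was -0.16 ± 0.12, inside the limits for a difference between the genes. Slc1a5 (ASCT2), a sodium-dependent exchanger of glutamine and other neutral amino acids, was at 31.4 TPM in library 3, against 81.7 and 78.3 TPM in libraries 1 and 2. Library 3 was lowest for all 3 genes and most so for Slc1a5.

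Slc43a2 (LAT4), a carrier of large neutral amino acids that needs no heavy chain, was at 45.8 TPM in library 3, against 57.7 and 53.6 TPM in libraries 1 and 2. It stood over its paralog Slc43a1 (LAT3) by 2.66 ± 0.33 on the log2 scale, and Slc43a1 was at 6.49, 7.49 and 8.41 TPM in libraries 1 to 3. The antisense gene Gm45606, at 9.46 TPM on average, overlaps Slc43a2. Slc7a1 (CAT1), the main carrier of arginine and lysine, was at 17.5, 24.4 and 23.5 TPM in libraries 1 to 3. Slc7a1 was lowest in library 1. In the order of transporter levels, 5 of 9 neighbouring pairs did not stand apart by 2 SD of their log2 difference, among them all steps between Slc3a2, Slc38a2, Slc38a1, Slc1a5 and Slc43a2.

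Among 27 other amino acid transporters, listed with earlier results of these data known, 12 were detected. Their highest members were Slc38a10 at 122 TPM, Slc38a9, a lysosomal arginine sensor of the mTORC1 pathway, at 38.4 TPM, and the taurine carrier Slc6a6 at 31.5 TPM on average. Library differences were tested by a chi-square against counting error, described below, which 63.9% of all genes passed, and 22.4% of all genes were low in library 3, that is, under the mean of libraries 1 and 2 by over 1.5 times. Of the 18 other transporters that could be tested, 10 differed between libraries and 4 were low in library 3, near those shares of all genes.

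Atf4 RNA was abundant, at 87.3, 97.8 and 99.6 TPM in libraries 1 to 3. It was lowest in library 1, with a coefficient of variation beyond counting of 8.27%, and it was among the genes that differed between libraries. Phgdh, the first enzyme of the pathway, was at 137, 127 and 131 TPM in libraries 1 to 3. Psat1, the transaminase that follows it, was at 44.5, 35.5 and 41.2 TPM. Psph, the phosphatase of the last step, was at 57.4, 54.3 and 62.3 TPM. Psat1 was the lowest of the 3 enzymes in TPM in each library, and of the 3 it alone differed between libraries, with 10.96% variation beyond counting. Asns, which makes asparagine and is among the best known ATF4 targets, was at 3.62 TPM in library 3, against 5.34 and 3.71 TPM in libraries 1 and 2. Asns was thus the lowest of these 5 genes in each library, with 65 to 108 expected counts behind each value.

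The log2 ratio of Asns over Nars, the synthetase that charges tRNA with the same asparagine, was -4.47 ± 0.09 (SD, n = 3). The ratio of Psat1 over Phgdh was -1.69 ± 0.11, and that of Psat1 over Psph was -0.52 ± 0.13, under the size limit, and turned to 0.29 from counts not scaled for length and to 0.17 from those of the second gene table. The difference of Psat1 and Phgdh was not seen in the second gene table, which holds whole counts for another annotation release: there, scaled to library totals and not for length, it was -0.0017. Phgdh had only 15.1% as many counts in that table as in the first, against a median of 46.4% over 11668 protein-coding genes. A processed pseudogene, Phgdh-ps1, is annotated, at 0 TPM in each library, and the level of Phgdh is uncertain. Psph shares its locus with an opposite-strand transcript of Cct6a at 257 TPM. Its deposited SD from read assignment was 1.73, 0.83 and 0.77 counts in libraries 1 to 3. Psph had 46.6% as many counts in the second table as in the first, near that median. The part of the overlap in its level was not tested.

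Of 22 other ATF4 targets and partners, 11 were detected. The highest were Herpud1, a factor of protein disposal at the endoplasmic reticulum, at 112 TPM, and the mitochondrial one-carbon enzymes Shmt2 at 82.9 TPM and Mthfd2 at 72.8 TPM on average. Of the 15 tested, 11 differed between libraries, against 63.9% of all genes, and 4 were low in library 3, against 22.4%. All 15 sensors and regulators of the integrated stress response, the pathway that leads to ATF4, were detected, led by Eif2s1 (the alpha subunit of eIF2) at 182 TPM, Eif2b2 at 92.5 TPM and Nck1 at 79.96 TPM. Of these 15, 13 differed between libraries, against 63.9% of all genes, and 6 were low in library 3, against 22.4%.

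In the first gene table the mitochondrial form of both transaminases was higher than the cytosolic form. Got2, the mitochondrial aspartate aminotransferase, was at 121, 108 and 116 TPM in libraries 1 to 3, and the cytosolic Got1 at 42.2, 35.96 and 37.4 TPM. The log2 ratio of Got2 over Got1 was 1.56 ± 0.05 (SD, n = 3), but in the second table it was -0.13, the opposite direction. Got2 had 12.9% as many counts there as in the first table. Its annotated pseudogene, Got2-ps1, was at 0.39, 0 and 0 TPM in libraries 1 to 3. Other abundant genes also had low shares in the second table, such as Lck at 11.3%. The second table alone therefore cannot settle which of the 2 is higher, and the order stays uncertain. The proteins share 48.8% of their aligned residues.

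Bcat2, the mitochondrial branched-chain aminotransferase, was at 56.1, 61.1 and 61.8 TPM, and Bcat1, its cytosolic form, at 8.18, 6.88 and 7.07 TPM in libraries 1 to 3. The log2 ratio of Bcat2 over Bcat1 was 2.86 ± 0.19, and each library had the same order. Glud1, glutamate dehydrogenase, was at 10.5 TPM in library 3, against 11.1 and 14.2 TPM in libraries 1 and 2. In the order of these 5 levels, Got2, Bcat2, Got1, Glud1 and Bcat1, each neighbour stood apart by over 2 SD in TPM. The place of Got2 is uncertain: in the second table it had 470, 416 and 451 counts, Bcat2 had 704, 686 and 660, and Got1 had 559, 446 and 463 in libraries 1 to 3.

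Of 16 other enzymes of glutamine, glutamate, proline and arginine, 14 were detected. The highest were Ass1, which makes argininosuccinate, at 106 TPM and the ornithine aminotransferase Oat at 83.1 TPM on average. The undetected ones were the glutaminase Gls2 at 0.42 TPM and the arginase Arg2 at 0.22 TPM. Of the 14 tested, 8 differed between libraries and 3 were low in library 3, near the 63.9% and 22.4% of all genes.

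All 19 synthetase genes were detected, and 18 reached 10 TPM in each library. The highest mean belonged to Dars, which charges aspartate, at 170, 153 and 174 TPM in libraries 1 to 3. Sars, for serine, was at 151, 144 and 158 TPM. Nars, for asparagine, was at 106 TPM in library 3, against 129 and 106 TPM in libraries 1 and 2. For all 3 of these genes the libraries lay within a narrow band, unlike Vars (valine), which averaged 155 TPM. Eprs, the bifunctional enzyme for glutamate and proline, averaged 106 TPM, and Kars (lysine) at 97.3 TPM, the phenylalanine subunits Farsb at 93.4 and Farsa at 87.0 TPM, Qars (glutamine) at 91.5 TPM, Tars (threonine) at 84.5 TPM and Wars (tryptophan) at 81.8 TPM followed. The lower members were Hars (histidine) at 66.9 TPM, Lars (leucine) at 64.7 TPM, Rars (arginine) at 60.7 TPM, Iars (isoleucine) at 56.5 TPM, Aars (alanine) at 51.2 TPM, Yars (tyrosine) at 49.4 TPM, Cars (cysteine) at 39.3 TPM and Gars (glycine) at 17.6 TPM. The order was shallow: 16 of 18 neighbours did not stand apart by 2 SD, the exceptions being Sars over Nars and Wars over Hars.

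Vars and Gars held the wide spread. Vars was at 39.1 TPM in library 3, against 226 and 198 TPM in libraries 1 and 2, and so was the highest of the synthetases in libraries 1 and 2 and the third lowest in library 3. Gars was at 6.45 TPM in library 3, against 21.9 and 24.5 TPM in libraries 1 and 2. Over all 19 synthetases the median coefficient of variation beyond counting was 5.67%, against 11.7% over detected protein-coding genes. With Vars and Gars set aside for their spread, it was 4.94% over the other 17. At the steady end, Qars was at 87.1, 93.7 and 93.6 TPM in libraries 1 to 3, with no spread beyond counting, and Farsa at 91.1, 84.0 and 86.0 TPM, with 0.798%.

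The subunits of phenylalanyl-tRNA synthetase, a tetramer of both, lay close together: the log2 ratio of Farsb over Farsa was 0.10 ± 0.16 (SD, n = 3), inside the limits for a difference. Eprs over Qars (0.21 ± 0.14), Dars over Nars (0.54 ± 0.16) and Wars over Yars (0.72 ± 0.26) were under the size limit. From counts scaled to library totals and not for length, Eprs over Qars came to 1.16 and Wars over Yars to 1.08, past that limit, so these comparisons depend on the scaling for length. Hars is overlapped on the opposite strand by Hars2 at 44.8 TPM and Wars by Wdr25 at 8.76 TPM on average. The deposited SD from read assignment was 0 for Wars and 0.92, 1.21 and 1.21 counts for Hars in libraries 1 to 3. With strand use unstated, the part of these overlaps in the levels was not tested. Of the 16 pairs compared among all 39 genes, 10 passed both limits.

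In mammals several synthetases are held in one multisynthetase complex. Of its enzymes, 7 are among the 39 genes (Eprs, Iars, Lars, Qars, Kars, Rars and Dars), and they had a median of 91.5 TPM, against 83.2 TPM for the other 12 synthetases. Their highest spread beyond counting was 6.60%, and none of the 7 moved in library 3 by more than 0.17 on the log2 scale. The scaffold proteins Aimp1, Aimp2 and Eef1e1 were at 51.3, 47.1 and 35.4 TPM on average, and Mars, the cytosolic methionine enzyme, was at 47.2 TPM in library 3, against 66.8 and 71.5 TPM in libraries 1 and 2. Mars stood at -0.55 in library 3 on the log2 scale, with 20.2% spread beyond counting, and the scaffold proteins had 5.66% (Aimp1), 13.7% (Aimp2) and 17.9% (Eef1e1). Of these 4 partners, 3 differed between libraries, against 63.9% of all genes, and 0 were low in library 3, against 22.4%. The structural classes overlapped: the 8 class I enzymes had a median of 62.7 TPM, and the 10 class II enzymes one of 90.2 TPM.

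Mitochondria charge their own tRNAs, mostly with enzymes of separate genes, while Gars and Kars serve both compartments. All 17 mitochondrial synthetases listed were detected. In 17 of 18 pairings of a cytosolic enzyme with the mitochondrial enzyme for the same amino acid, the cytosolic RNA was higher in each library, with a median ratio of 5.35. The ratio of means was 26.1 for Mars over Mars2, 13.0 for Yars over Yars2 and 10.9 for Wars over Wars2 at the high end, and 1.22 for Rars over Rars2 and 1.19 for Tars over Tars2 at the low end. The exception was Lars at 64.7 TPM, against Lars2 at 438 TPM on average. Lars2 had only 2.17% as many counts in the second gene table as in the first, so its place is uncertain. Of the 17 mitochondrial enzymes, 12 differed between libraries, against 63.9% of all genes, and 7 were low in library 3, against 22.4%.

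**Figure D3:**
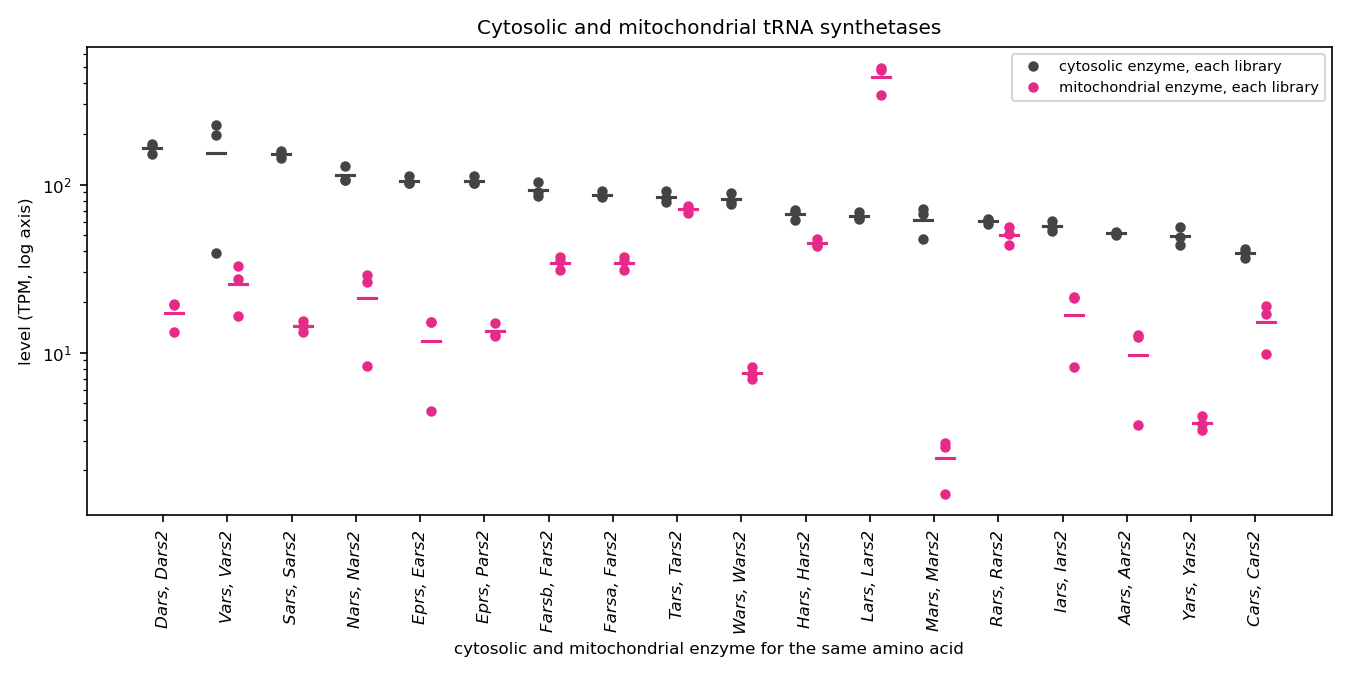
Levels in TPM, on a log axis, of cytosolic synthetases (dark points) and of the mitochondrial enzyme for the same amino acid (pink points), with a point per library and a bar at the mean. The cytosolic points lie above the mitochondrial ones in 17 of 18 pairings, and Lars2 lies above Lars.

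Synthetase levels were set beside the use of each amino acid in the proteins these cells encode, translated from GENCODE M21 coding sequences and weighted by TPM. Leucine, the most used single amino acid among those charged by these enzymes, made up 9.78% of residues with Lars at 64.7 TPM, and tryptophan, the least used, 1.11% with Wars at 81.8 TPM. Spearman's rho between level and use was 0.19 over the 19 synthetases and 0.11 over 17 without Eprs and Farsb, and 0.16, 0.21 and 0.076 in libraries 1 to 3 taken singly, as a description, since all points come from the same libraries.

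Differences between the libraries were tested with Pearson's chi-square against Poisson sampling on counts scaled with edgeR's TMM factors, with Benjamini-Hochberg adjustment over 14877 genes. With no replicate animals, this measures the spread between these libraries, whose origin in 1 RNA sample is not stated. Of 38 genes tested, 29 differed at an adjusted p under 0.05, against 63.9% of all genes tested. The 9 that did not were Asns, Phgdh, Psph, Aars, Farsa, Hars, Iars, Qars and Rars, and of these the adjusted p by that chi-square test was 0.0503 for Asns and 0.0527 for Hars, next to the threshold. The 63.9%, also set beside the lists above, includes genes with few counts. Among the 10430 detected protein-coding genes tested, 7696 differed. With a filter of 50 counts, 31 of the 38 genes and 74.9% of all genes did. Many of the 29 differences were small, as for Got2 with a coefficient of variation beyond counting of 3.43%. The median of that coefficient was 7.49% over the 38 genes, 5.67% over the synthetases and 19.95% over the 9 transporters tested.

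Library 3 stood apart, as it did across the transcriptome. In library 3, 5 of the 38 genes were lower by over 1.5 times than the mean of libraries 1 and 2, against 22.4% of all genes tested, and 0 were higher by that much, against 6.75%. On the log2 scale of scaled counts these were Vars at -2.43, Gars at -1.83, Slc7a5 at -1.68, Slc3a2 at -1.44 and Slc1a5 at -1.39, and the same 5 passed a limit of 2 times. The next lowest were Slc38a2 at -0.52 and Slc38a1 at -0.40. Each of the 5 was past the chi-square threshold, with a statistic of 5008 for Vars and 52.9 for Slc7a5 on 2 degrees of freedom. The erythroid marker sum was 1616 TPM in library 3, against 1284 and 998 TPM in libraries 1 and 2, and the macrophage marker sum was 39.6 TPM, against 48.98 and 50.6 TPM. The plasma cell marker sum was 27.2 TPM in library 3, against 66.2 and 156 TPM in libraries 1 and 2. Its members did not move together. Xbp1 was at 11.95 TPM in library 3, against 52.7 and 46.5 TPM, and Igha was high in library 2 alone. Mzb1 went the other way, at 3.03 TPM in library 3, against 0 and 1.16 TPM in libraries 1 and 2. Jchain was at 10.51 TPM, against 9.54 and 14.97 TPM, and Sdc1 was near 0. The part of these markers in the result was not tested.

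The 5 genes shared a feature of sequence. The highest GC content in any stretch of 200 bases of their leading transcript was 79.5% for Slc7a5, 77.5% for Vars, 76.5% for Gars, 73.5% for Slc1a5 and 70.5% for Slc3a2. All 5 were among the 9 genes at 70% or more, whose median in library 3 was -1.39, and 0 of the 29 genes under 70% were low, with a median of 0.07. Over 9305 protein-coding genes that averaged at least 100 counts, 57.5% of those at 70% or more and 9.73% of those under 70% were low. The other 4 genes at 70% or more were Aars, Glud1, Slc38a1 and Eprs, and the densest stretch of Aars lies in its 3′ UTR. That of Slc1a5 was taken from a retained intron form with no annotated coding part. Spearman's rho between this local GC content and the log2 value of library 3 was -0.58 over the 38 genes and -0.54 over the 9305, as a description over genes of the same libraries, while rho with the GC content of the whole transcript was -0.20 over the 38 genes, -0.37 over the 19 synthetases and -0.31 over the 9305.

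The densest stretches of Slc3a2 and Kars both lie inside the coding part and are shown because the genes had similar levels in libraries 1 and 2 and parted in library 3. They are given in the direction of the mRNA, on the minus strand of chromosomes 19 and 8, with runs of 5 or more G or C in capitals.
Slc3a2, bases 328 to 527 of its transcript of 1819 bases: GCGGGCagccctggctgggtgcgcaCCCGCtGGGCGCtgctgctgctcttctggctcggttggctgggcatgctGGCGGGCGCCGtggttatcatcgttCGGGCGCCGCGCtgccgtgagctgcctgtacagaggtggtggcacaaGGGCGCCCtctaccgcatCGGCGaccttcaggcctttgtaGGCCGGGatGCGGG
Kars, bases 1528 to 1727 of its transcript of 2008 bases: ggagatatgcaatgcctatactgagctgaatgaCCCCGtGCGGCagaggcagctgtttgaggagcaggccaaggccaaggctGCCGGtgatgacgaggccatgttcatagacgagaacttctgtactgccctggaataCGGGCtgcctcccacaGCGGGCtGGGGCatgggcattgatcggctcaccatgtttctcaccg
The Slc3a2 stretch is 70.5% GC, with 65 bases in 9 such runs, and the Kars stretch is 58.5% GC, with 31 bases in 6 runs. Slc3a2 was at -1.44 and Kars at 0.17 on the log2 scale of library 3 over the mean of libraries 1 and 2. The pair was thus chosen on its values in library 3. Eprs, at 112.7 and 102.2 TPM in libraries 1 and 2, was as near to Slc3a2 in level. Its densest stretch, partly in the UTR, is 70% GC, and Eprs stood at -0.10 in library 3. The part of a dense stretch in the drop of Slc3a2 was not tested.

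When the trend on local GC content was removed from each library, a step chosen after seeing the data, 27 of the 38 genes still differed between libraries, against 58.7% of all genes, and 4 were low in library 3 by over 1.5 times, against 15.1%. Vars was then at -1.70, Slc7a5 at -1.14, Gars at -1.01 and Slc3a2 at -0.90, still lower by over 1.5 times, and Slc1a5 at -0.53 no longer passed. Slc38a1 came to 0.46, against -0.40 before removal of the trend, Aars to 0.42, against -0.03, and Eprs to 0.36, against -0.10. Which of the levels, with or without library 3, is nearer to that of the cells was not tested.

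**Figure D4:**
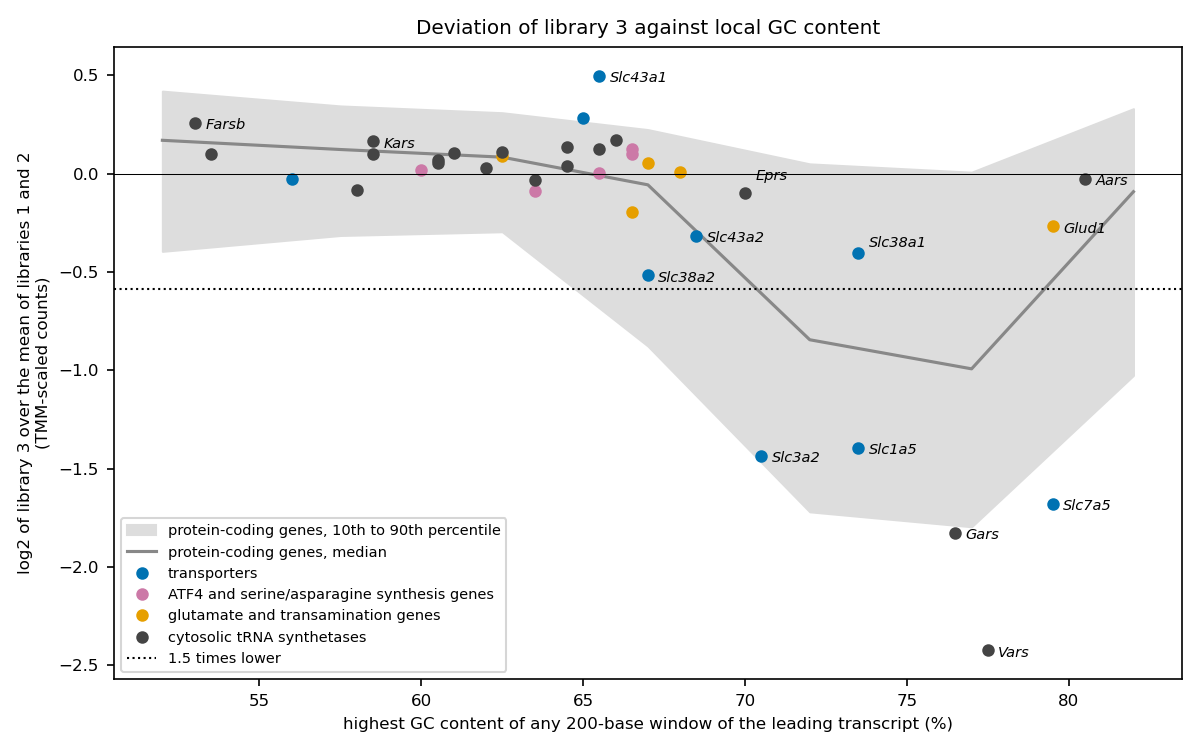
Log2 of library 3 over the mean of libraries 1 and 2, in TMM-scaled counts, against the highest GC content of any 200-base window of the leading transcript, with a point for each of the 38 genes tested; the grey line and band are the median and the 10th to 90th percentile of protein-coding genes in bins of GC content, placed at the median GC content of each bin. The 5 low genes all lie at 70.5% or more, and the 29 genes under 70% lie above the dotted line of 1.5 times lower.

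The transcript tables show how the reads of each gene were spread over its isoforms. The leading transcript held a median of 64.4% of its gene's TPM over the 39 genes. It held over 90% for 9 genes, among them Atf4 (98.4%), Phgdh (99.1%) and Dars (97.5%), and less than 50% for 11 genes. For 3 genes the leading transcript is not annotated as coding: a retained intron form for Slc1a5 (53.3% ± 4.90 of its TPM; SD, n = 3) and for Slc7a11, and a form subject to nonsense-mediated decay for Qars (23.4% ± 1.39). By expected counts, with no scaling for length, the median was 81.9%. The leading form of Slc38a1 held 26.8% of its TPM in library 3, against 46.9% and 44.5% in libraries 1 and 2, and that of Slc3a2 held 43.7% in library 3, against 58.4% and 59.6%.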

How the data were processed

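RNA of 3 libraries, technical replicates 1 to 3 of 1 biological replicate per the labels, formed 1 group. The authors deposited for each library a gene table with expected counts, TPM and FPKM, and a transcript table that also gives each transcript's percent of its gene's TPM, per the file headers, for GENCODE M21 on mm10. A second deposited gene table holds whole counts for GENCODE M4. The aligner, the counter and strand use are left unstated in the sources used here. Entries that are no annotated gene (tRNA and spike-in entries) held 0.254%, 0.291% and 0.231% of expected counts and stayed out of tests.

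Expected counts were rounded and scaled with TMM factors (edgeR 4.0.16, R 4.3.3). Genes that averaged at least 10 counts were tested with Pearson's chi-square against Poisson sampling with 2 degrees of freedom and Benjamini-Hochberg adjustment over all genes tested (threshold 0.05). The script was tested on simulated data. Such p-values measure only the spread between these libraries. The labels call them technical, but whether they share 1 RNA sample is not stated, and no spread between animals is covered. The spread beyond counting is the coefficient of variation left after the part expected from counting; edgeR's common value over all genes was 0.279. Pair ratios used log2(TPM + 1). Local GC content is the highest of any 200-base window of the most abundant transcript, and its trend was a lowess curve (fraction 0.3) over protein-coding genes that averaged at least 100 counts. Coding sequences came from GENCODE M21 and promoters from RefSeq (GRCm38.p6, the assembly behind mm10).

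All 39 genes were named. From each further list the 3 highest genes were named, with those under 1 TPM where there were 4 or fewer; others were named after their values were seen (Slc7a7, Slc7a8, Slc7a10, pseudogenes, overlapping genes, and synthetases at the ends of the cytosolic to mitochondrial ratios). Some items that the rule takes, and 1 promoter site, are not reported here. The members and lists were chosen with earlier results of these data known. Alternatives were DESeq2 1.42.0 size factors, library totals, filters of 50 counts or none, a threshold of 0.01, the second table, other units, pseudocounts and limits, trends on GC content, and leaving out each library.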

Additional observations from a re-analysis of the deposited data

How the results depend on the processing

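The count of 29 genes that differed between libraries lay at 24 in the second gene table, where 56.8% of all genes differed. It lay between 26 and 36 under other scalings, filters, thresholds and GC trends. Of all genes, 64.3% differed with DESeq2 size factors, 67.65% with library totals, 30.25% with no filter and 65.5% with the transcript GC trend removed. The count was 21 without library 1, 25 without library 2 and 18 without library 3. Of all genes, 51.5%, 54.0% and 30.2% then differed, against 63.9% with all libraries. The count of 37 detected genes lay between 36 and 38, that of 10 pairs between 9 and 13, and that of 5 genes low in library 3 between 4 and 6. The median level of 63.8 TPM became 41.0 in FPKM and 77.4 TPM over nuclear protein-coding genes, and lay between 60.5 and 62.6 TPM when 1 library was left out. The median share of the leading isoform, 64.4%, became 81.9% by expected counts and lay between 65.7% and 67.4% when 1 library was left out. Got2 over Got1 turned to -0.13 in the second table, and the cause was not tested. The rho of synthetase level and amino acid use lay between 0.18 and 0.22 with other weights, with Mars, or when 1 library was left out. No paired analysis was possible because the libraries form 1 group and no groups were compared. With 3 technical libraries, spread between animals cannot be seen, and genes at a few counts, such as Slc7a11, have no usable precision.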

Other observations

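Local GC content did not go with the level of library 3 in one direction throughout. Over protein-coding genes that averaged at least 100 counts, the median log2 value of library 3 over the mean of libraries 1 and 2 was -0.84 for the 1439 genes whose densest stretch lay between 70 and 75% GC and -0.99 for the 932 genes between 75 and 80%. It was -0.09 for the 407 genes at 80% or more, among them Aars at 80.5% with -0.03.

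The second gene table held a median of 46.4% of the first table's counts per protein-coding gene, and 58.7% for the 38 of the 39 genes with enough counts. Gars (85.6%) and Asns (88.4%) were at the high end, and Got2 (12.9%) and Phgdh (15.1%) at the low end. Other genes had shares as low. Of the other genes named, Ass1 was at 13.4% and Lars2 at 2.17%, and the abundant T cell markers Trac, Cd3e, Cd3d and Lck were at 4.54%, 5.34%, 10.5% and 11.3%. Lck had 3243, 3240 and 3234 counts in the second table, against 31235, 26342 and 28117 in the first, in libraries 1 to 3.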
